A study of Mus musculus with 6 samples.

Results

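The myomiRs are the microRNAs of striated muscle, and here they were described in whole aortas of 6 mice. They were chosen by name: the assays of miR-1, miR-133a, miR-133b, miR-206, miR-208, miR-208b and miR-499, which are 7 of the 517 microRNA assays measured. The study compared 2 groups of Apoe-/- male littermates that all carried LysM-Cre, the Cre recombinase driven by lysozyme M. In 3 mice both Dicer alleles were floxed (Dicer flox/flox, Dicer_KO aortas), and in 3 mice Dicer was wild type (Dicer wt/wt, Dicer_WT aortas). Mice aged 6 to 8 weeks were put on a high-fat diet with 21% crude fat for 12 weeks, and the vessel was taken after perfusion with RNAlater. The lysozyme M promoter works in myeloid cells, and whether any muscle cell lost Dicer was not measured. The labels name the tissue as aorta and the cell type as macrophage, and the values are those of whole vessels, in which fewer cells of a type and less RNA per cell cannot be told apart. The replicates are called biological and each was taken as 1 mouse.

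Dicer cuts microRNA precursors to their mature form. miR-1 and miR-133a are made together from shared transcripts in heart and skeletal muscle, where miR-1 favours differentiation and miR-133a restrains serum response factor. Both have also been found in smooth muscle. miR-206 and miR-133b form a second pair, miR-206 being mainly a skeletal muscle microRNA. miR-208 (now miR-208a), miR-208b and miR-499 lie in myosin heavy chain genes, and miR-208a is the microRNA most restricted to the heart. The root of the aorta joins the heart, and the tissue that supplied these RNAs was not recorded.

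The seed (bases 2 to 8, in capitals) sorts these RNAs into families and so shows which members would share targets. RefSeq sequences on GRCm38.p6 were matched for 5 of the 7 members, and miR-1 and miR-133a are named only. The array's older names were read as the arms given here.
miR-206 (miR-206-3p, chr1:20679055-20679076, plus strand): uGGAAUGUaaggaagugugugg
miR-133b (miR-133b-3p, chr1:20682834-20682855, plus strand): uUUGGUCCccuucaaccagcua
miR-208 (miR-208a-3p, chr14:54949072-54949093, minus strand): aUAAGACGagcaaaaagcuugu
miR-208b (miR-208b-3p, chr14:54975710-54975731, minus strand): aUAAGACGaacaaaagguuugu
miR-499 (miR-499-5p, chr2:155622893-155622913, plus strand): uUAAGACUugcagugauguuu
miR-208 and miR-208b share 1 seed and 19 of 22 bases. Counted from the 5′ end of miR-208, they differ by G10A, A16G and C18U. miR-499 differs from both at 1 seed base, G8U, and is identical to miR-208 at 12 of the 21 positions compared. The miR-206 and miR-133b hairpins lie 3686 bases apart, and both mature sequences fall inside the long noncoding RNA gene Lincmd1. miR-208 falls inside Myh6, miR-208b inside Myh7 and miR-499 inside Myh7b. The chromosome 2 copies of the miR-1 and miR-133a hairpins, Mir1a-1 and Mir133a-2, lie 9254 bases apart.

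Each RNA was read once per aorta by TaqMan PCR as the threshold cycle (Ct), which is lower the more RNA there is, by 1 for each doubling. Below Ct 35, taken as detected, lay 349 to 366 assays in Dicer_KO aortas and 374 to 378 in Dicer_WT aortas. Over all assays, 7 were called lower and 0 higher in Dicer_KO aortas (limma, adjusted p under 0.05 among 377 assays tested, with 101 at an unadjusted p under 0.05). Dicer_KO replicate 1 weighed on this count, which was 55 lower and 9 higher without it. As markers of the labelled tissue, all 3 smooth muscle assays (miR-143, miR-145 and miR-145*) and all 4 endothelial assays were detected in every aorta.

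Of the 7 members, 4 were detected in every aorta (miR-1, miR-133a, miR-133b and miR-206), miR-208 in 5, miR-499 in 2 and miR-208b in none. miR-133a had the lowest Ct, with 18.0, 18.6 and 17.6 in Dicer_KO replicates 1 to 3, against 17.3, 17.7 and 17.5 in Dicer_WT replicates 1 to 3. Its mean Ct was the 14th lowest of the 517 assays. miR-1 was read at 21.0, 21.7 and 20.6 in Dicer_KO aortas, against 20.8 in each Dicer_WT aorta. miR-133b was read at 20.95, 21.9 and 20.5 in Dicer_KO aortas, against 20.5, 20.6 and 20.9 in Dicer_WT aortas. miR-206 followed at 23.7, 25.1 and 23.9 in Dicer_KO aortas and 23.5, 24.1 and 24.9 in Dicer_WT aortas. Over all 6 aortas the mean Ct was 17.8 ± 0.460 for miR-133a, 20.9 ± 0.384 for miR-1, 20.9 ± 0.539 for miR-133b and 24.2 ± 0.631 for miR-206 (SD, n = 6). miR-1 and miR-133b did not differ beyond their spread: within an aorta, the Ct of miR-133b minus that of miR-1 was -0.02 ± 0.192 (SD, n = 6). The other steps in this order exceeded the spread of the Ct gap. The order is one of Ct, and assays may differ in how efficiently they amplify.

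**Figure D1:**
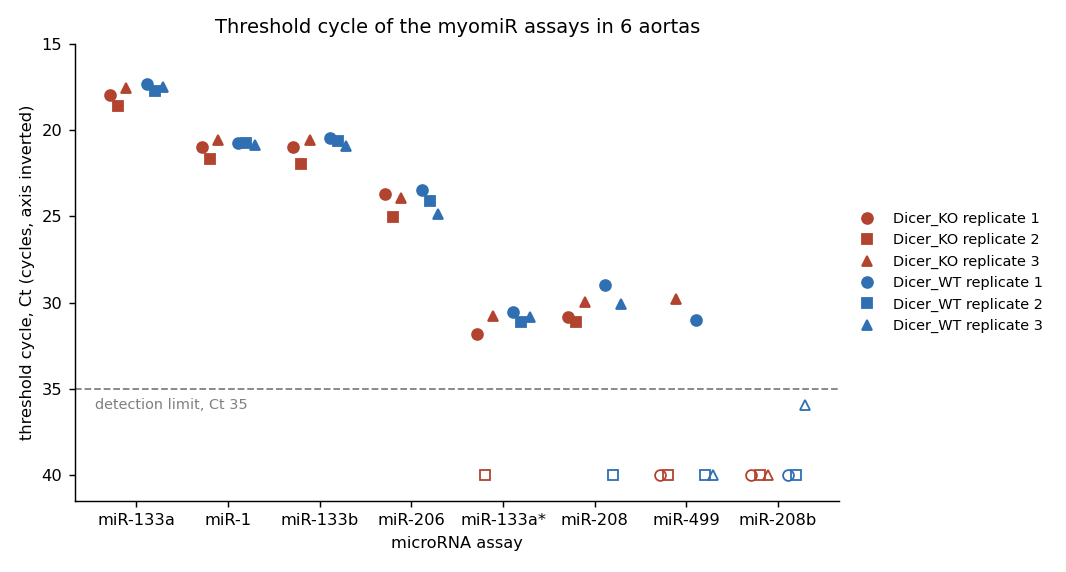
Threshold cycle (Ct, inverted axis) of the 7 myomiR assays and of miR-133a*, the opposite arm of the miR-133a hairpin, 1 point per aorta, with filled points below Ct 35 and open points at or above it. miR-133a, miR-1, miR-133b and miR-206 lie at Ct 25.1 or lower in all aortas, whereas miR-208, miR-499 and miR-133a* lie at Ct 29.0 or higher with 1 or more silent wells, and miR-208b has no filled point.

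The heart-restricted miR-208 was read near Ct 30 where it was detected. Its Ct was 30.8, 31.1 and 30.0 in Dicer_KO replicates 1 to 3, against 29.0, 40 (no product) and 30.1 in Dicer_WT replicates 1 to 3. The well without product was in Dicer_WT replicate 2, an aorta with 378 assays detected and with miR-1 and miR-133a near the level of the other Dicer_WT aortas. miR-499 gave Ct 29.8 in Dicer_KO replicate 3 and 31.0 in Dicer_WT replicate 1, and no product in the other 4 aortas. These 2 aortas also had the lowest Ct for miR-208, with Dicer_WT replicate 3 close behind and without miR-499. miR-208b gave no product in Dicer_KO aortas or in Dicer_WT replicates 1 and 2, and Ct 35.9 in Dicer_WT replicate 3, beyond the limit of detection. The opposite arm of miR-133a, miR-133a*, was read at 31.8, 40 and 30.8 in Dicer_KO aortas, against 30.6, 31.1 and 30.8 in Dicer_WT aortas. Its silent well was in Dicer_KO replicate 2, the aorta with the highest Ct of miR-133a. Each RNA was read once per aorta, so a failed well cannot be told from absent RNA for any of these silent wells.

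The authors' relative quantity, used from here on, sets each Ct against small RNAs used as references on that aorta's card and gives the Dicer_WT aortas a geometric mean of 1. miR-1 had relative quantities of 0.897, 0.687 and 1.41 in Dicer_KO replicates 1 to 3, against 0.875, 1.08 and 1.05 in Dicer_WT replicates 1 to 3. miR-133a had 0.747, 0.593 and 1.15 in Dicer_KO aortas, against 0.992, 0.909 and 1.11 in Dicer_WT aortas. For both, Dicer_KO replicate 3 was the highest and Dicer_KO replicate 2 the lowest of all 6 aortas, so the Dicer_WT values lay inside the Dicer_KO range. miR-133b had 0.862, 0.529 and 1.34 in Dicer_KO aortas, against 1.00, 1.09 and 0.916 in Dicer_WT aortas, with the same 2 extremes. miR-206 had 1.39, 0.631 and 1.37 in Dicer_KO aortas, against 1.41, 1.05 and 0.680 in Dicer_WT aortas. Here Dicer_KO replicate 2 was again lowest, next to Dicer_WT replicate 3, and the other Dicer_KO aortas lay just under Dicer_WT replicate 1. The groups overlapped for all 4.

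**Figure D2:**
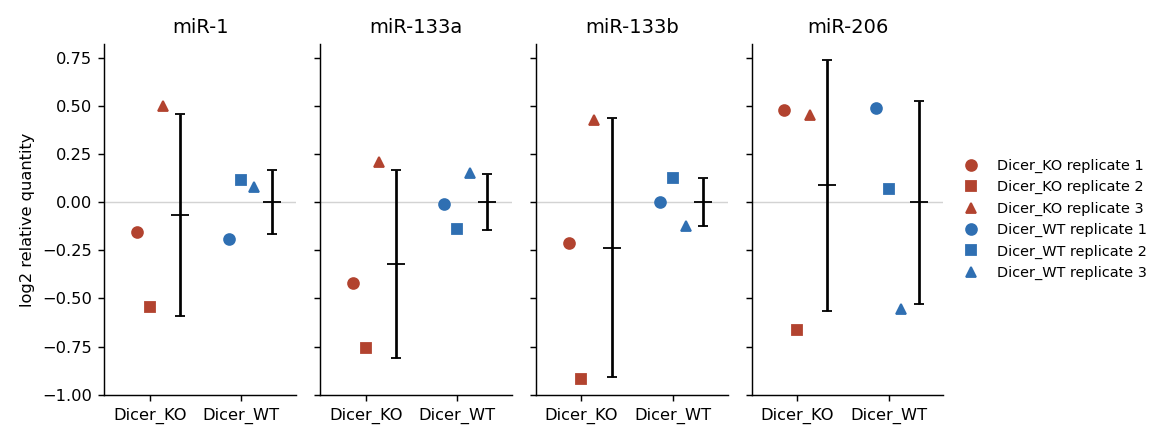
Log2 relative quantity of the 4 myomiRs detected in every aorta, 1 point per aorta, with bars for the mean and SD of each group (n = 3). Dicer_KO replicate 2 is the lowest point in all 4 panels, Dicer_KO replicate 3 is the highest for miR-1, miR-133a and miR-133b, and the Dicer_WT points are close together except for miR-206.

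None of the 5 members tested passed the threshold between genotypes in the fit over all assays. miR-1 averaged 0.999 ± 0.373 in Dicer_KO aortas and 1.00 ± 0.113 in Dicer_WT aortas (SD, n = 3 each), a log2 difference of -0.07 ± 0.303 (SE, limma adjusted p = 0.867, 95% interval -0.81 to 0.68). miR-133a averaged 0.831 ± 0.290 in Dicer_KO aortas and 1.00 ± 0.10 in Dicer_WT aortas, a log2 difference of -0.32 ± 0.285 (limma adjusted p = 0.414, 95% interval -1.02 to 0.38). miR-133b averaged 0.911 ± 0.409 in Dicer_KO aortas and 1.00 ± 0.0878 in Dicer_WT aortas, a log2 difference of -0.24 ± 0.359 (limma adjusted p = 0.623, 95% interval -1.12 to 0.65). miR-206 averaged 1.13 ± 0.432 in Dicer_KO aortas and 1.04 ± 0.363 in Dicer_WT aortas, a log2 difference of 0.09 ± 0.426 (limma adjusted p = 0.876, 95% interval -0.96 to 1.14). The interval of miR-133a and that of miR-133b reach below a log2 difference of -1, and that of miR-206 reaches above 1.

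For miR-208, with the silent well set to the limit of Ct 35, the log2 difference was 0.93 ± 1.52 (SE, limma adjusted p = 0.647, 95% interval -2.81 to 4.66). This value rested on the silent well of Dicer_WT replicate 2, without which it was -0.85. The opposite arm miR-133a* had a log2 difference of -1.52 ± 1.05 (SE, limma adjusted p = 0.328), and -0.33 without Dicer_KO replicate 2, whose well was silent. miR-499 and miR-208b were detected in too few aortas for the fit.

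Of the 5 members tested, 0 were called, against 1.86% of all assays called lower and 0% called higher. At an unadjusted p under 0.05 there were again 0 of the 5, against 26.8% of all assays, and the groups were apart for 0 of the 5, against 35% of all assays. In these aortas 78.2% of all assays had a log2 difference below 0 and their median was -0.42. Of the 5 members, 3 were below 0, all 5 lay above the median of all assays, and their own median was -0.07. The signs of these small values followed the scale: miR-1, miR-133a and miR-133b turned above 0 with mean centring and relative to U87 and Y1, and miR-206 below 0 without normalization or relative to U6 alone. The median of all assays moved with the scale too, to -0.13 with mean centring, 0.16 relative to U87 and Y1, 0 after quantile normalization, -0.61 relative to U6 alone and -0.64 without normalization. All 5 members stayed above it under each of these, except miR-133a after quantile normalization, whose difference from it was -0.10. Apart from quantile normalization, these scales shift all assays of a card alike in each aorta, so the order was largely set beforehand. miR-208 stood above the median with its silent well set to Ct 35, and its difference was -0.85 with undetected wells left missing. miR-133a and miR-133b lay above 58.4% and 65.5% of the assays tested. No member was called under any of the alternatives.

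**Figure D3:**
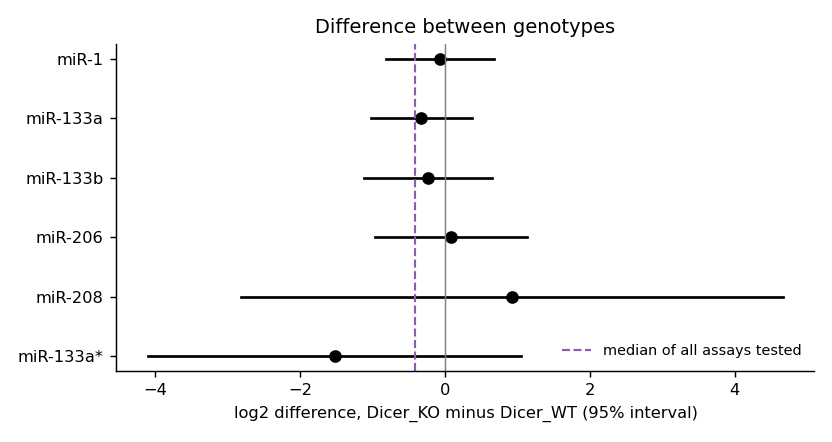
Log2 difference between Dicer_KO and Dicer_WT aortas (points) with 95% intervals from limma for the 5 myomiRs tested and miR-133a*, and the median of all 377 assays tested (dashed line). Every interval crosses 0, and those of miR-208 and miR-133a*, each with a silent well, are the widest.

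In the authors' deposited table, the fold change of Dicer_KO over Dicer_WT was 0.994 for miR-1, 0.828 for miR-133a, 0.909 for miR-133b and 1.08 for miR-206. In the authors' deposited table miR-208 stood at 0.860, miR-208b at 0.175 and miR-499 at 3.31. For all 7 members these folds equal the ratio of arithmetic group means with wells at Ct 40 counted as measured. The value of miR-208b therefore rests on the single well at Ct 35.9, and that of miR-499 on 1 well with product in each group. For miR-208 the same relative quantities gave a ratio of geometric means of 6.04, on the other side of 1 from the authors' deposited table, because the silent Dicer_WT well weighs more on a log scale.

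The 4 members detected everywhere differed among the Dicer_KO aortas in the same sense. Dicer_KO replicate 3 exceeded Dicer_KO replicate 2 by 2.54-fold in miR-133b, 2.17-fold in miR-206, 2.06-fold in miR-1 and 1.95-fold in miR-133a. The median of the 330 assays detected in every aorta went the other way, with a ratio of 0.841 between these 2 aortas. Ranked by this step, miR-133b came first of the 330, miR-206 the 4th, miR-1 the 5th and miR-133a the 7th (tied with miR-135a). Mean centring gave the same places, but it shifts all assays of a card alike and so could hardly change them. The other assays among the first 8, named after their values were seen, were miR-369-3p, miR-154, miR-450a-5p and miR-135a. Dicer_KO replicate 3 was the highest of the Dicer_KO aortas in 8.18% of the 330 assays and Dicer_KO replicate 2 the lowest in 15.5%. miR-208, outside this ranking, had 2.17 times the relative quantity in Dicer_KO replicate 3. miR-499 and miR-133a* were detected in Dicer_KO replicate 3 and silent in replicate 2, where a failed well cannot be told from absent RNA. miR-499 was silent in Dicer_KO replicate 1 too. The step between Dicer_KO replicates 3 and 2 was noticed in the data, rests on 1 aorta against another, and has no test.

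**Figure D4:**
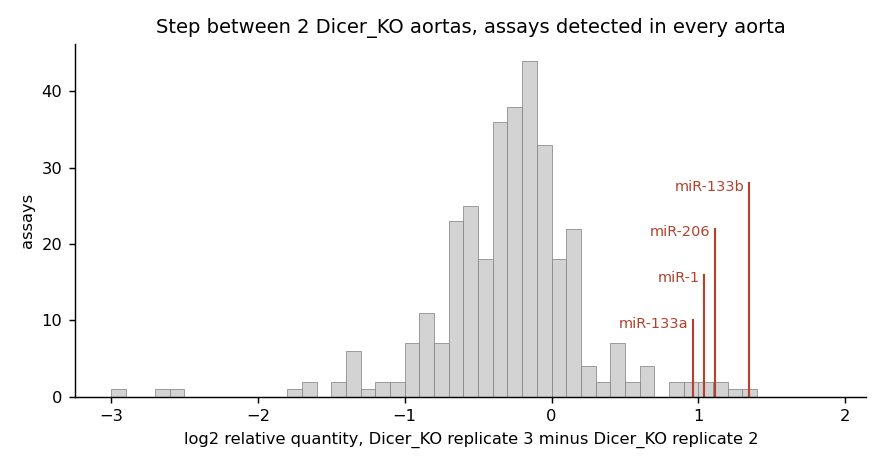
Histogram of the log2 step in relative quantity between Dicer_KO replicate 3 and Dicer_KO replicate 2 for the 330 assays detected in every aorta, with the 4 myomiRs marked by red lines. The bulk of assays lies below 0, with a median of -0.25, and the myomiRs lie between 0.96 and 1.34 at the right edge.

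Beside this step, the marker lists of other cell types and of muscle, 8 in all, each had a lower mean log2 value in Dicer_KO replicate 3 than in Dicer_KO replicate 2, as had the median of all assays. In Dicer_KO replicates 3 and 2 that mean was 0.47 and 1.23 for liver, 1.06 and 1.65 for red cells, -1.17 and -0.54 for myeloid cells and -0.55 and -0.12 for nerve. It was -0.35 and -0.12 for endothelium, -0.17 and 0.06 for fat and -0.09 and -0.01 for other striated muscle microRNAs. The mean log2 deviation of the 3 smooth muscle assays from the Dicer_WT mean was 0.15, -0.33 and -0.60 in Dicer_KO replicates 1 to 3, against -0.22 to 0.13 in Dicer_WT aortas. That of the 4 myomiRs was -0.08, -0.72 and 0.39 in Dicer_KO replicates 1 to 3, against -0.11 to 0.07 in Dicer_WT aortas. The summed relative quantity of the smooth muscle assays was 2.04 to 3.55 in Dicer_KO aortas and 2.58 to 3.28 in Dicer_WT aortas, with none of these markers silent. Of the step between Dicer_KO replicates 3 and 2, miR-145* made up the most with -0.65 on the log2 scale, while miR-143 (-0.05) and miR-145 (-0.11) were above the median of all assays (-0.25). The part of these marker lists in the spread of the myomiRs was not tested. Within Dicer_KO aortas the SD of the log2 values was 0.53 for miR-1, 0.49 for miR-133a, 0.67 for miR-133b and 0.65 for miR-206, against a median of 0.33 over the 330 assays. Within Dicer_WT aortas it was 0.17, 0.14, 0.13 and 0.53 in the same order, against a median of 0.24. miR-206 was thus the member that also varied among Dicer_WT aortas, and whether the spread differs between genotypes was not tested.

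Across the 6 aortas, the 3 pairs among miR-1, miR-133a and miR-133b had higher correlations than the 3 pairs with miR-206, and no pair passed the threshold after adjustment. Each pair with miR-206 also crosses cards, since only miR-206 was on the second card, so RNA and card cannot be told apart here. The correlation of log2 relative quantity was r = 0.91 for miR-1 and miR-133b (Spearman rho = 0.83, exact permutation p = 0.0181 for r and 0.0583 for rho, n = 6). It was r = 0.87 for miR-133a and miR-133b (rho = 0.77, exact permutation p = 0.0208 and 0.103) and r = 0.84 for miR-1 and miR-133a (rho = 0.71, exact permutation p = 0.0375 and 0.136). After Benjamini-Hochberg adjustment over the 6 pairs computed, these r values had exact permutation p = 0.0625, 0.0625 and 0.0750, and those of rho were all 0.272. miR-206 correlated with miR-133b, encoded beside it, at r = 0.67 (rho = 0.37, exact permutation p = 0.143 and 0.497), with miR-1 at r = 0.42 (rho = 0.09, exact permutation p = 0.458 and 0.919) and with miR-133a at r = 0.35 (rho = 0.26, exact permutation p = 0.490 and 0.658). Adjusted over the 6 pairs, these p-values (exact permutation) were 0.215, 0.490 and 0.490 for r and 0.746, 0.919 and 0.790 for rho. The sequences of miR-133a and miR-133b were not compared, and whether either assay also reads the other RNA was not tested.

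Without the 2 aortas farthest from the median of the first-named RNA, r fell to 0.43 for miR-1 and miR-133b, to 0.27 for miR-133a and miR-133b and to 0.41 for miR-1 and miR-133a. Leaving out the farthest aortas narrows the range and so tends to lower r in itself. The fall therefore cannot show which aortas the relation rested on. The 2 aortas left out were Dicer_KO replicates 2 and 3 for pairs led by miR-1 and by miR-133b and Dicer_KO replicates 1 and 2 for those led by miR-133a. For miR-206, the same step gave r = 0.01 with miR-133b, -0.80 with miR-1 and -0.12 with miR-133a. With single aortas left out instead, r for miR-1 and miR-133b lay between 0.85 (without Dicer_KO replicate 2) and 0.98. Centred on each genotype, r was 0.93 for miR-1 and miR-133b, 0.87 for miR-133a and miR-133b and 0.91 for miR-1 and miR-133a. These values rest on the wide spread of the Dicer_KO aortas: among Dicer_WT aortas miR-133a was highest in replicate 3 and lowest in replicate 2, and miR-133b highest in replicate 2 and lowest in replicate 3. Assays of a card share reference RNAs, and most assays lay lower in Dicer_KO aortas. What gave the assays a common level was not tested. Over all 54285 pairs of the 330 assays, within and across cards, the median r was 0.42. Of these pairs, 7.40% reached the highest value among the members and 53.7% the lowest. The pairs of miR-206 with miR-1 and with miR-133a were thus at or below the median pair. Mean centring on these same assays removes the common level and so brings the median over all pairs near 0 (0.03). The member pairs then ranged from 0.56 to 0.93, and the share of all pairs reaching these values was not computed.

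**Figure D5:**
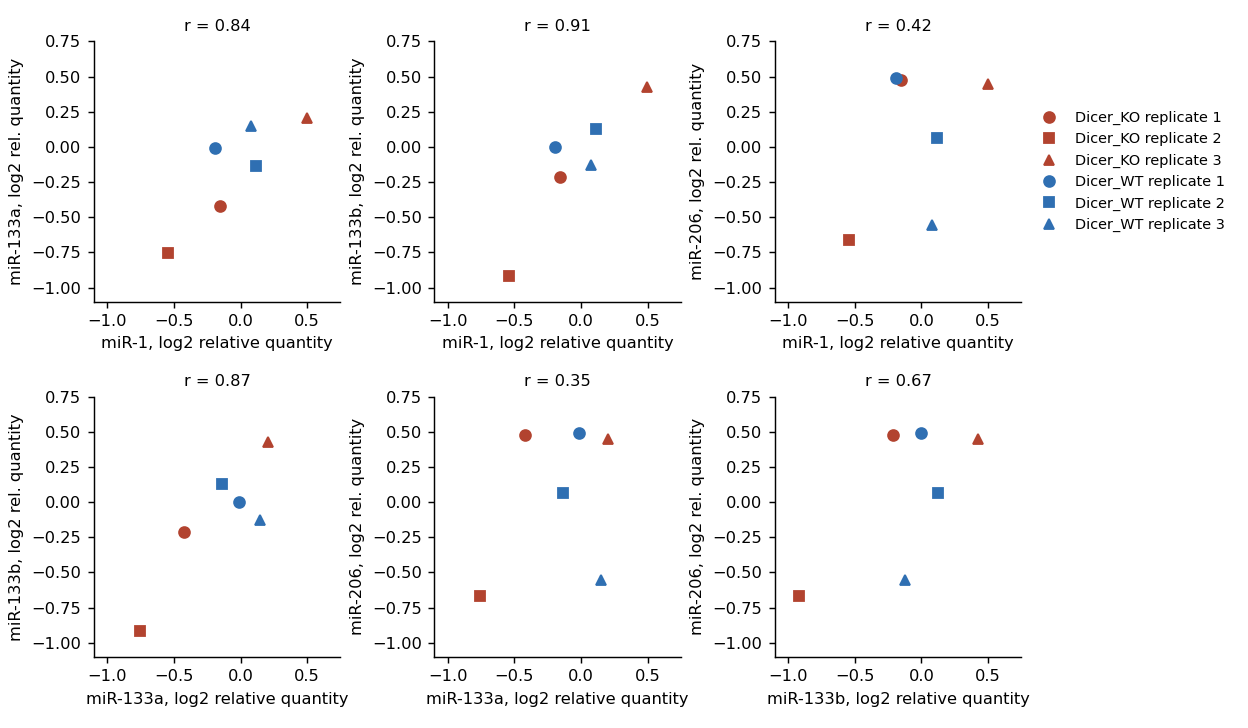
Log2 relative quantity of each pair of the 4 myomiRs detected in every aorta, 1 point per aorta, with Pearson's r above each panel. Dicer_KO replicate 2 stands at the lower left of all panels, and miR-1, miR-133a and miR-133b line up between it and Dicer_KO replicate 3, while miR-206 is spread widely among the Dicer_WT aortas.

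The gap in Ct between a pair on the same card needs no reference RNA. The Ct of miR-133a minus that of miR-1 was -3.028, -3.08 and -3.001 in Dicer_KO replicates 1 to 3, against -3.473, -3.04 and -3.365 in Dicer_WT replicates 1 to 3. This gap was nearly the same in the 3 Dicer_KO aortas although each RNA on its own spanned about 1 cycle there. Its SD over all 6 aortas was 0.202 cycles, against a median of 0.488 over the 23436 pairs of the 217 first-card assays detected in every aorta, and 7.80% of those pairs had a smaller SD. For miR-133b minus miR-1 the SD was 0.192, with 6.71% of pairs smaller, and for miR-133b minus miR-133a it was 0.224, with 10.5% smaller. miR-206 was on the second card, and its Ct minus that of miR-133b was 2.77, 3.11 and 3.39 in Dicer_KO aortas, against 2.99, 3.46 and 3.92 in Dicer_WT aortas (SD over all 6 aortas 0.406).

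Among the 326 other assays detected in every aorta, those most like the mean of the 4 myomiRs over 6 aortas were miR-34a (r = 0.84), miR-582-5p (0.80), miR-369-3p (0.74), miR-135a (0.73) and miR-154 (0.73). The least like were miR-708 (-0.94), miR-138 (-0.91) and miR-138* (-0.90), and the median was -0.05. As a scale, miR-133b correlated with the mean of the other 3 myomiRs at 0.98, miR-1 at 0.81, miR-133a at 0.74 and miR-206 at 0.52. miR-34a, a p53-responsive microRNA, had relative quantities of 1.12, 0.681 and 1.06 in Dicer_KO aortas, against 1.04, 1.11 and 0.864 in Dicer_WT aortas. miR-138 ran the other way, with 0.756, 2.82 and 0.494 in Dicer_KO aortas, against 1.29, 0.768 and 1.01 in Dicer_WT aortas.

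Other microRNAs abundant in striated muscle, though not restricted to it, were set beside the myomiRs. Of 16 such assays, all tested, 0 were called in either direction, against 1.86% of all assays. A log2 difference below 0 was found for 13 of the 16, close to the 78.2% of all assays, and their median was -0.25, against -0.42 over all assays. Their r to the myomiR mean ran from -0.46 for miR-29c to 0.63 for miR-29b, with a median of -0.0027. miR-486, abundant in muscle and in red cells, had 1.596, 3.16 and 2.03 in Dicer_KO aortas, against 1.70, 1.08 and 0.544 in Dicer_WT aortas, and an r of -0.29. miR-378, hosted in a metabolic coactivator gene, had 1.14, 2.11 and 2.77 in Dicer_KO aortas, against 0.789, 1.17 and 1.08 in Dicer_WT aortas, and an r of -0.04.

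Markers of other cell types were set beside the myomiRs in the same way, and 0 members of these lists were called, where 1.86% of all assays gives little room for a call in lists this short. The median log2 difference was -0.87 for myeloid cells, with all 6 assays below 0, -0.71 for nerve, -0.42 for smooth muscle and -0.29 for endothelium. It was 0.05 for fat, 0.64 for liver and 1.24 for red cells, against -0.42 over all assays. The r of single assays to the myomiR mean ran from -0.43 to 0.22 for smooth muscle (3 assays), from -0.49 to 0.25 for endothelium (4 assays) and from -0.61 to 0.07 for myeloid cells (6 assays). It ran from -0.81 to 0.02 for fat (6 assays), from -0.53 to -0.22 for liver (3 assays), from -0.29 to -0.20 for red cells (2 assays) and from -0.73 to 0.15 for nerve (5 of 6 assays detected in every aorta). The highest member r among these lists, 0.25 for miR-221, lay below the values of miR-1, miR-133a, miR-133b and miR-206 to the mean of the other 3. These are not like measures, since the markers were set against the mean of all 4. Assays outside these lists went higher: miR-34a, picked by its value, had 0.84, against 0.81 for miR-1, 0.74 for miR-133a and 0.52 for miR-206. miR-29b, of the striated muscle list, had 0.63. High r was thus not particular to the myomiRs. Each r is over 6 aortas that share reference RNAs and is given as a description.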

How the data were processed

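The members and marker lists were chosen with earlier results of these data known. Per the labels' protocols, total RNA was reverse-transcribed with TaqMan kits, preamplified and read with FAM probes. The sources used here do not state the cycler software or its threshold. The authors deposited Ct values, with 40 for wells without product, and 5 cells with a decimal comma were read as points. The authors also deposited relative quantities, a linear ratio per assay. Judged from the values, log2 of this deposited ratio is the averaged Ct of the references, per card and aorta, less the Ct of the assay, scaled on Dicer_WT (largest difference 5.22e-06). The references were U6, snoRNA135 and snoRNA202, joined by snoRNA429 on the second card. Another deposited table holds the authors' fold changes, and 515 of its 517 values equal ratios of arithmetic means within 0.1%.

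Wells at Ct 35 or above were set to Ct 35 for the fit. An assay entered the test when 2 or more aortas of either group had it below Ct 35, which held for 377 of 517 assays. The test was a two-sided moderated fit of log2 values by limma 3.58.1 (R 4.3.3), with Benjamini-Hochberg adjustment across the tested assays. The fit was tested on simulated data. Correlations used two-sided exact permutation over the pairings. Named assays were the members, the opposite arm miR-133a*, the 5 assays most and 3 least like the mean of the 4 members detected everywhere, and the listed markers. The number of arrays limits the precision. The labels name no run date or lot, and technical batches were not tested.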

Additional observations from a re-analysis of the deposited data

How the results depend on the processing

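No myomiR was called under any alternative tried for the 5 members tested, 17 for miR-208 and 18 for the other members. miR-499 and miR-208b were not followed. miR-1 (-0.07) turned to 0.30 with mean centring, 0.44 relative to U87 and Y1 and 0.37 after quantile normalization, and ranged from -0.35 without Dicer_KO replicate 3 to 0.17 without Dicer_KO replicate 2. miR-133a (-0.32) turned to 0.043 with mean centring and 0.19 relative to U87 and Y1, and ranged from -0.59 without Dicer_KO replicate 3 to -0.11 without Dicer_KO replicate 2. miR-133b (-0.24) turned to 0.13, 0.28 and 0.23 with mean centring, U87 and Y1 and quantile normalization, and ranged from -0.57 to 0.11 over the same aortas. miR-206 (0.09) turned to -0.10 without normalization and -0.16 relative to U6 alone, and ranged from -0.19 without Dicer_WT replicate 3 to 0.46 without Dicer_KO replicate 2. miR-208 (0.93) turned to -0.073 at a Ct cutoff of 32 and to -0.85 with undetected wells left missing, was at 2.59 with Ct 40 taken as measured, and with single aortas left out lay between -0.85 (Dicer_WT replicate 2) and 2.01 (Dicer_WT replicate 1). The median over members (-0.07) changed sign to 0.28 with mean centring, 0.44 relative to U87 and Y1, 0.37 after quantile normalization and 0.17 without Dicer_KO replicate 2. In all 18 alternatives it moved by less than the SD of that median over the Dicer_KO aortas, 0.56 on the log2 scale. That SD is a spread of single aortas, not the error of a difference between groups, and does not show the median to be stable.

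Over all assays, the 7 lower calls became 4 after quantile normalization, 24 at a Ct cutoff of 32, 13 with Ct 40 taken as measured and 20 over assays detected in all 6 aortas, and ranged from 5 to 55 over aortas left out. The 0 higher calls became 1 with mean centring, 2 relative to U87 and Y1, 1 after quantile normalization, 2 at a Ct cutoff of 32 and 2 over assays detected in all 6 aortas, and ranged from 0 to 9. The cause of these moves was not tested. With the replicate number as a block (replicate block), 7 were lower and 0 higher, and miR-1, miR-133a, miR-133b, miR-206 and miR-208 kept their values with no call. Same-numbered aortas deviated together at 0.18, -0.10 and 0.15. Dicer_KO replicates 1 and 3 correlated best with their own number, and Dicer_KO replicate 2 with Dicer_WT replicate 3 (0.18). With 3 aortas per group, these values cannot tell whether same-numbered aortas shared a litter or day.

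The correlation of miR-1 and miR-133a was 0.92 relative to U6 alone (exact permutation p = 0.0542) and 0.65 to 0.93 over aortas left out. That of miR-133a and miR-133b was 0.93 relative to U6 alone (exact permutation p = 0.117), 0.89 relative to U87 and Y1 (exact permutation p = 0.0653), 0.87 centred on genotype (exact permutation p = 0.0667) and 0.60 to 0.96 over aortas left out. That of miR-133b and miR-206 was 0.77 without normalization (exact permutation p = 0.0403), 0.77 with mean centring (exact permutation p = 0.0417), 0.88 relative to U87 and Y1 (exact permutation p = 0.0444) and 0.29 to 0.80 over aortas left out. The lowest value in each of these ranges came without Dicer_KO replicate 2. The pair of miR-499 and the miR-208 family was not run, since neither was detected in all aortas.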
